A study of Mus musculus with 3 samples.

Results

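The cytosolic ribosomal protein genes were examined in excitatory neurons sorted from the mouse hippocampus. Members were taken by symbol: a protein-coding gene of the count table entered if its GENCODE vM21 symbol was Rpl or Rps followed by a number and, where present, letters, and Rplp0, Rplp1, Rplp2 and Rpsa were added. This gave 82 genes of the 52636 listed, 50 of the large and 32 of the small ribosomal subunit. The rule uses symbols and no measured value.

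RNA was sequenced from 3 biological replicates of male Camk2a-Cre +/-, Ai14 +/- mice aged 28 to 32 days, with the hippocampi of 2 to 4 mice pooled for each. Ai14 carries a tdTomato reporter that Cre switches on, and the Camk2a promoter drives Cre in a subset of forebrain excitatory neurons, so the tagged cells are those with a history of that promoter. Tissue was digested with papain, live tdTomato-positive cells were collected by fluorescence-activated cell sorting (FACS), and poly(A) RNA was made into libraries. There was 1 condition and no unsorted or tdTomato-negative sample, so the values below are levels with their spread over replicates and carry no test.

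A ribosome is built from ribosomal RNA and one copy of nearly every ribosomal protein, and the 2 subunits meet on an mRNA to translate it. The small subunit reads the message and the large subunit joins amino acids and lets the new chain out through an exit tunnel. Most ribosomal protein mRNAs begin with a C followed by a run of pyrimidines, the 5′ terminal oligopyrimidine (TOP) tract, through which their translation follows mTOR signalling. In neurons these mRNAs are also found in dendrites and axons.

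Assigned counts were 48159841, 25686630 and 15833075 in replicates 1, 2 and 3, a 3.04-fold range. Genes of the mitochondrial genome took between 7.09% and 10.6% of counts, and the ribosomal RNA feature CT010467.1 held 1.21%, 3.20% and 3.50%. Levels are given in TPM, a gene's count divided by the length of its merged exons and scaled to a fixed sum over the nuclear protein-coding genes. All 7 CA1 markers and all 4 excitatory markers were detected, with Camk2a at 1615 TPM and Wfs1 at 404 TPM. The 3 dentate granule markers (summed TPM 797 to 895 over the replicates), the 4 oligodendrocyte markers (869 to 996), the 4 astrocyte markers (136 to 268) and the 4 microglia markers (34.9 to 48.8) were detected as well. The 3 endothelial markers summed to 7.41, 13.8 and 60.2 TPM, and the 3 interneuron markers summed to 57.4, 43.5 and 60.8 TPM. Of these Gad1 was detected with 54.3, 43.0 and 59.1 TPM, Gad2 had at most 2.31 TPM, and Slc32a1 was listed at 0 in replicates 2 and 3. In such bulk samples fewer cells of a type and less RNA per cell cannot be told apart, and the part of these other cells in the values below was not tested.

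A gene was called detected if it had a depth-scaled count (CPM, counts scaled to a library of 1e+06) of at least 1 in each replicate. By this measure 78 of the 82 ribosomal protein genes were detected, against 30.3% of all genes and 56.8% of the other nuclear protein-coding genes. All 32 small subunit genes and 46 of the 50 large subunit genes passed. The 4 that did not, Rpl36al, Rpl3l, Rpl39l and Rpl10l, are copies of other members and are described with their pairs. Lowering the limit to 0.1 CPM gave 79 genes, and raising it to 10 CPM gave 69.

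The 82 genes together took 168704, 92608 and 52109 counts, which was 0.350%, 0.361% and 0.329% of all assigned counts in replicates 1, 2 and 3 (mean 0.347% ± 0.016, SD, n = 3). The median member stood at 99.8, 106 and 101 TPM (mean 102 ± 3.38, SD, n = 3). The median of detected nuclear protein-coding genes was 37.6 TPM, and 76 of the 82 members lay above it. Across members the level was uneven, since the 10 highest held 42.6% of the summed TPM and 42 members had a mean of at least 100 TPM.

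**Figure D1:**
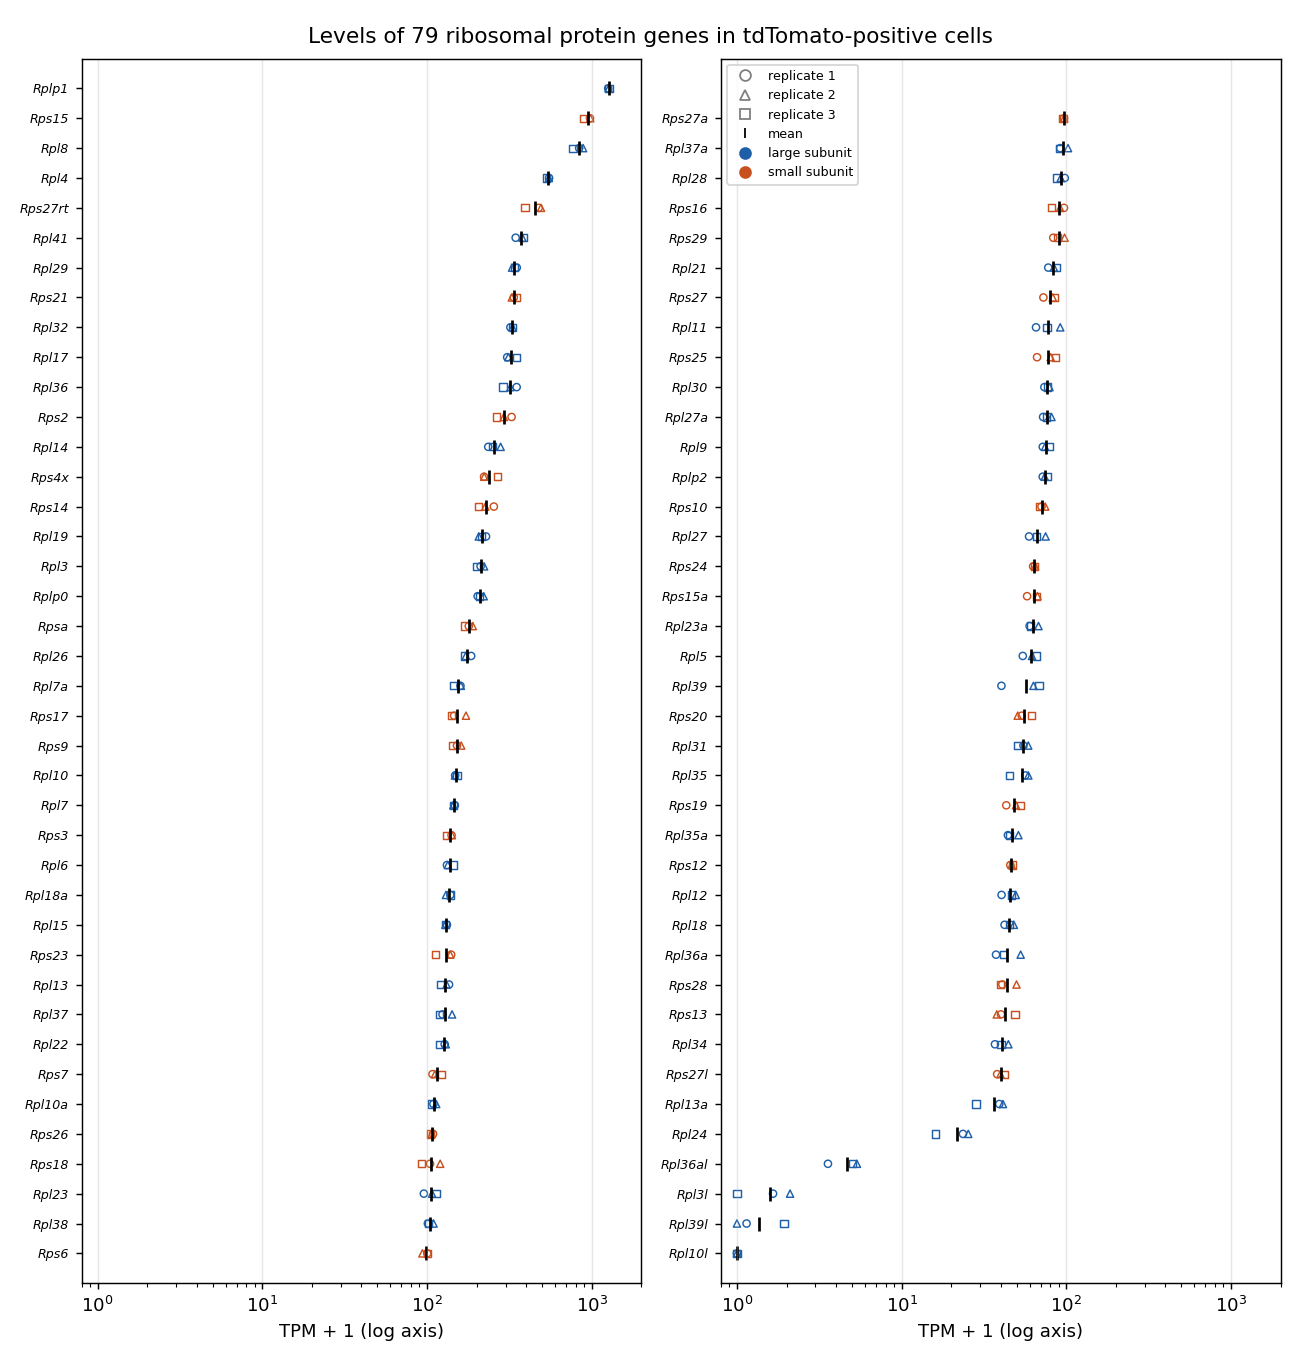
Level of 79 of the 82 ribosomal protein genes in TPM + 1 on a log axis, ordered by mean from the top of the left panel to the bottom of the right. Open symbols are the 3 replicates and black ticks their mean, blue for the large and orange for the small subunit. Rplp1 leads at 1266 TPM, most genes lie between 39 and 370 TPM, and the 4 undetected genes stand apart at the lower right.

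Rplp1, which encodes an acidic protein of the stalk that recruits translation factors to the large subunit, was the highest of all members. It was listed at 1260, 1268 and 1272 TPM in replicates 1, 2 and 3 (mean 1266 ± 6.26, SD, n = 3). The gene lies on chromosome 9 (GRCm38, chr9:61913284-61914542, minus strand) and by itself held 9.35% of the summed TPM of the members. Rps15, a protein of the small subunit head near the decoding site, followed with 976, 980 and 893 TPM. Rpl8, which lies close to the peptidyl transferase centre where peptide bonds form, had 838, 886 and 770 TPM. Rpl4, whose extension lines the exit tunnel, had 550, 549 and 534 TPM. Each of these 4 genes stood above the next gene in the order in all replicates, without overlap.

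The next ranks were less separate. Rps27rt, an intronless copy of Rps27 on chromosome 9 that is annotated as protein coding, had 476, 492 and 393 TPM and lay just above Rpl41, whose highest replicate was 385. Rpl41, the shortest member with a coding length of 75 bases or 25 residues, had a mean of 369 TPM ± 21.7 (SD, n = 3). Rpl29 (338 ± 11.2), Rps21 (337 ± 11.6) and Rpl32 (326 ± 5.41) were also among the 10 highest, and each of these overlapped with its neighbour in the order. Over the whole order, 68 of the 81 pairs of neighbouring genes overlapped in their replicates, so only coarse ranks can be read from 3 samples.

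At the lower end, Rpl24, a large subunit protein at the bridge between subunits, was the lowest detected member with 194, 111 and 40 counts or 22.6, 24.4 and 15.1 TPM. Its replicates lay below those of Rpl13a, which had 38.2, 40.3 and 27.3 TPM. Rpl24 and Rpl13a share 47.0% and 35.4% of their exon bases with other annotated genes, so their low counts are uncertain. Rps27l (39.1 ± 2.16), Rpl34 (39.5 ± 3.82), Rps13 (41.3 ± 5.80) and Rps28 (42.6 ± 5.48) came next and overlapped with each other. The highest detected member was 61.2-fold above the lowest, Rpl24, in mean TPM, so this range rests on an uncertain count. Between the 90th and the 10th percentile of detected members the ratio was 7.61.

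These levels rest on the length used. Merged exons count every base of any transcript, and their length was a median of 1.87 times that of the main protein-coding transcript, with 39 members above 2 times. With the main transcript length the range from highest to lowest fell to 40.2-fold, the ratio of the 90th to the 10th percentile to 5.38, and 7 of the 10 highest genes were shared. Rplp1 (851 TPM) and Rps15 (804 TPM) remained at the head, and Rpl24 (21.2 TPM) remained the lowest detected gene. Across the 78 detected members Spearman's rho between the 2 sets of levels was 0.816, a description of genes within the same libraries.

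The start sites are shown because the TOP tract is the feature that joins these mRNAs. RefSeq promoters of GRCm38.p6 were found for 62 of the 82 members, and Rplp1 and Rpl8 were among the 20 without one. Each line gives 30 bases, 10 before and 20 from the annotated start, 5′ to 3′ on the gene's strand, with a tract in capitals, for the members with a promoter among the 10 highest genes that have no tract (Rps15, Rpl4, Rpl41) or have one (Rps27rt, Rps21), and for Rps27, Rps6 and Rplp2.
Rps15: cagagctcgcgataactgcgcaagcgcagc
Rpl4: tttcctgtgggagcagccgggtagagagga
Rpl41: gggccggctcggaagtgacgacaccgagca
Rps27rt: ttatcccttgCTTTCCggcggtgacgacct
Rps27: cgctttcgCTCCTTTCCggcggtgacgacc
Rps21: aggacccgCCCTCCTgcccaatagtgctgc
Rps6: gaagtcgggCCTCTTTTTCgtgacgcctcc
Rplp2: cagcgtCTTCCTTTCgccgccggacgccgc

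A tract was called where a C within 5 bases of the annotated start was followed by at least 4 C or T on the gene's strand. It was found in 27 of the 62 members (43.5%) and in 18.3% of the 32851 promoters in the table. The windows of Rps27 and its copy Rps27rt shared a run of 19 bases. In 18 members only did the annotated start lie within 5 bases of the start of the main transcript, so the absence of a tract says only that these letters are not at this annotated start. Median levels were 91.5 TPM for the 27 members with a tract and 89.0 TPM for the 35 without. The undetected genes Rpl36al, Rpl3l, Rpl39l and Rpl10l were all among those without a tract and lower that median. No order of level by tract can therefore be read without choosing which genes to use.

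Of other letters searched on both strands over 250 bases before to 50 after the start, CCGGAAG, the core bound by ETS family factors, occurred in 38.7% of members and 8.86% of all promoters. TATAA occurred in 25.8% against 24.9%. AAGATGGC, the core of the YY1 motif, occurred in 6.45% against 2.75%. Matches can overlap, since CCGGAAG ends in the letters that open AAGATGGC and, read from the opposite strand, can form part of a pyrimidine tract. The table lists several starts for some genes, while each member entered with 1. A match describes the sequence and is no measured site.

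Large subunit proteins were grouped by place, beginning with the stalk. Rplp0, the base of the stalk, had 202, 220 and 206 TPM, and Rplp2, the partner of Rplp1 in the stalk dimers, had 71.0, 73.0 and 75.8 TPM. Rplp1 was thus 17.8-, 17.4- and 16.8-fold above Rplp2 in replicates 1, 2 and 3, and 8.05-fold with the main transcript length. Rplp1 was the higher in every replicate by either length. A protein-coding gene, Wdr89, shares a 150-base word with Rplp2, and Gm10073 shares one with Rplp1, so reads of either could be split. Wdr89 had 2296, 1291 and 702 counts, above the 1226, 668 and 405 of Rplp2 in every replicate. Gm10073 had 2149, 1087 and 603, below the 5241, 2794 and 1637 of Rplp1. The size of the ratio is therefore uncertain.

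Around the peptidyl transferase centre, Rpl3 had 211, 221 and 199 TPM and Rpl10, which joins the subunit late in its assembly, had 147, 147 and 151. Both lay below Rpl8 in each replicate. With the main transcript length Rpl8 had 472 TPM, Rpl3 326 and Rpl10 239. The value of Rpl8 is uncertain, as its main transcript of 1020 bases is longer than its deposited length of 862. The order of Rpl3 and Rpl8 turned when the counts of word-sharing pseudogenes, described below, were added. Rpl3 then stood at 687 TPM and Rpl10 at 257, while Rpl8, with no such pseudogene, stayed at 472. The 8 proteins of the exit tunnel had a median of 119 TPM ± 2.04 (SD, n = 3), from Rpl35 at 52.5 to Rpl4 at 544. Between them lay Rpl17 (321), Rpl19 (215), Rpl26 (175), Rpl23a (61.9), Rpl39 (56.3) and Rpl31 (53.8). Rpl35 and Rpl23a share 66.2% and 62.3% of their exon bases with another annotated gene, the only members above 50%, so their counts are uncertain.

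Rpl5 and Rpl11, which carry the 5S ribosomal RNA into the large subunit and bind Mdm2 when free, were both below the median of members in TPM, although Rpl11 (167 TPM) lay above the median of 156 TPM with the main transcript length. Rpl5 had 53.4, 60.9 and 65.2 TPM and Rpl11 had 64.5, 90.9 and 75.5 TPM. Rpl5 stood at 0.828, 0.670 and 0.864 of Rpl11 in replicates 1, 2 and 3, lower in each. With the main transcript length Rpl5 had 77.0 TPM against the 167 of Rpl11. Rpl5 shared 88.2% of its 150-base words and 26.7% of its exon bases with other genes, and Rpl11 shared 49.6% of its words. The pseudogenes Gm15500 of Rpl5 and Gm10288 of Rpl11 each had more counts than the member in every replicate. The size of the ratio is therefore uncertain. Rpl22, the protein that is tagged in the RiboTag mouse, had 127, 129 and 119 TPM, and no 150-base word of its main transcript was found in another gene.

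In the small subunit, Rps2 and Rps3, which line the mRNA entry, had means of 294 TPM ± 30.5 and 137 TPM ± 5.58 (SD, n = 3). At the mRNA exit, Rps14 had 254, 225 and 204 TPM, Rps26 had a mean of 106 ± 1.85, and Rps28 was lower than both in each replicate. Rps6, the S6 kinase substrate whose phosphorylation is a common readout of mTOR activity in neurons, had 99.4, 92.8 and 99.5 TPM. Rps27a, made as a fusion with ubiquitin, had 95.8, 96.0 and 94.6 TPM. Of the 9 groups by role, 6 had a median above that of all members, and the 5S particle, Rps6 and Rps27a lay below it. With the main transcript length 5 were above, as Rps27a (160 TPM) moved above the median of 156 TPM and the exit tunnel (107 TPM) and Rpl22 (119 TPM) moved below it. With the counts of word-sharing pseudogenes added as well, the median of detected members was 277 TPM. Rps6 (294 TPM) and Rpl11 (444 TPM) then lay above it, and Rpl5 (208 TPM) and Rps27a (227 TPM) below. The place of these groups is therefore uncertain.

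By subunit, the median was 98.4 TPM ± 4.72 for the 50 large and 105 TPM ± 3.23 for the 32 small subunit genes (SD, n = 3). The difference of the medians, large minus small, was -0.13, -0.06 and -0.09 on the log2(TPM + 1) scale (mean -0.10 ± 0.04, SD, n = 3). It was negative in all 3 replicates but turned to 0.04 when the 4 undetected genes, all of the large subunit, were left out. With the main transcript length it was -0.43. No order of the subunits can therefore be read from these data without choosing which genes and which length to use.

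Several paralogue pairs set a broadly used gene beside a copy known from another tissue. Rpl10l, a retrocopy of Rpl10 with a role in the male germ line, had 0 counts in every replicate, which allows up to 3 counts in each. Rpl10 had 2522, 1332 and 800 counts and was at least 419-, 221- and 133-fold higher per length than this limit of 3 counts in replicates 1, 2 and 3. The limit covers counting error only.

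Rpl39l, also known from male germ cells, had 1, 0 and 2 counts, against 471, 394 and 249 for Rpl39. Per length and pooled over replicates the ratio was 215, with a 95% interval of 73.4 to 1045 (exact, counting error only). Rpl3l, which replaces Rpl3 in striated muscle, had 9, 8 and 0 counts, and Rpl3 was higher by 7.12 ± 0.47 on the log2(TPM + 1) scale (SD, n = 3), or by 8.87 with a pseudocount of 0.1. Rpl36al had 29, 26 and 14 counts, and Rpl36a was higher by 3.25 ± 0.18, or by 4.80 with the main transcript length. Rpl36a-ps3, a word-sharing pseudogene of Rpl36al, had 344, 166 and 89 counts. Rpl36al shares 24.5% of its exon bases with another annotated gene, and Rpl36a shared 81.1% of its words. The low count of Rpl36al, its call as undetected and the size of this ratio are therefore uncertain. With pseudogene counts added, by main transcript length, Rpl36al stood at 22.5 TPM and Rpl36a at 266. All 4 copies were below their parent gene in every replicate.

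The 2 copies of Rps27 went opposite ways. Rps27l, a p53-responsive paralogue, had 37.0, 38.8 and 41.3 TPM, and Rps27 with 71.6, 81.8 and 83.3 TPM was higher by 0.99 ± 0.06 on the log2(TPM + 1) scale, or by 1.87 with the main transcript length. Rps27rt exceeded Rps27 in every replicate, with a difference, Rps27 minus Rps27rt, of -2.50 ± 0.25, or -0.92 with the main transcript length. Rps27 shared 98.0% of its 150-base words with another gene and Rps27rt 87.1%, so the split of reads between both is uncertain. Rps27l shared none.

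For 2 pairs the second gene lies outside the symbol rule. Rpl22 exceeded Rpl22l1 by 1.29 ± 0.14 on the log2(TPM + 1) scale and Rpl7 exceeded Rpl7l1 by 1.11 ± 0.06. The first of these rested on length, as Rpl22 minus Rpl22l1 was -0.04 with the main transcript length, while Rpl7 stayed higher at 2.31. In total the first gene was higher in each replicate in 7 of 8 pairs (6 with the main transcript length). Rps4l, the testis copy of Rps4x, was not analysed here.

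Ribosomal protein genes have many processed pseudogenes, and these took counts in the same table. The main transcript of each member was cut into overlapping words of 150 bases, the length of a read, and each word was looked up in the annotated transcripts of all other genes. Of the 82 members, 69 shared at least 1 such word and 13 shared none. A median of 25.5% of a member's words was found elsewhere, or 49.3% with words of 50 bases, and 21 members had at least 50%. The highest shares were those of Rps27 (98.0%), Rpl5 (88.2%), Rps27rt (87.1%), Rpl10a (86.0%) and Rpl10 (83.3%).

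Annotated pseudogenes that share a 150-base word with a member numbered 233. They held 85483, 49220 and 27586 counts in replicates 1, 2 and 3, equal to 50.7%, 53.1% and 52.9% of the counts of the members (mean 52.3% ± 1.37, SD, n = 3). Of them 186 had a count in every replicate. The ratio was less even for single genes, and for the pseudogenes of Rpl24 it ran from 737% to 1425% of the counts of Rpl24. With words of 50 bases 983 pseudogenes held 63.2% ± 2.50, and the 276 pseudogenes named after a member held 25.4% ± 0.53.

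**Figure D2:**
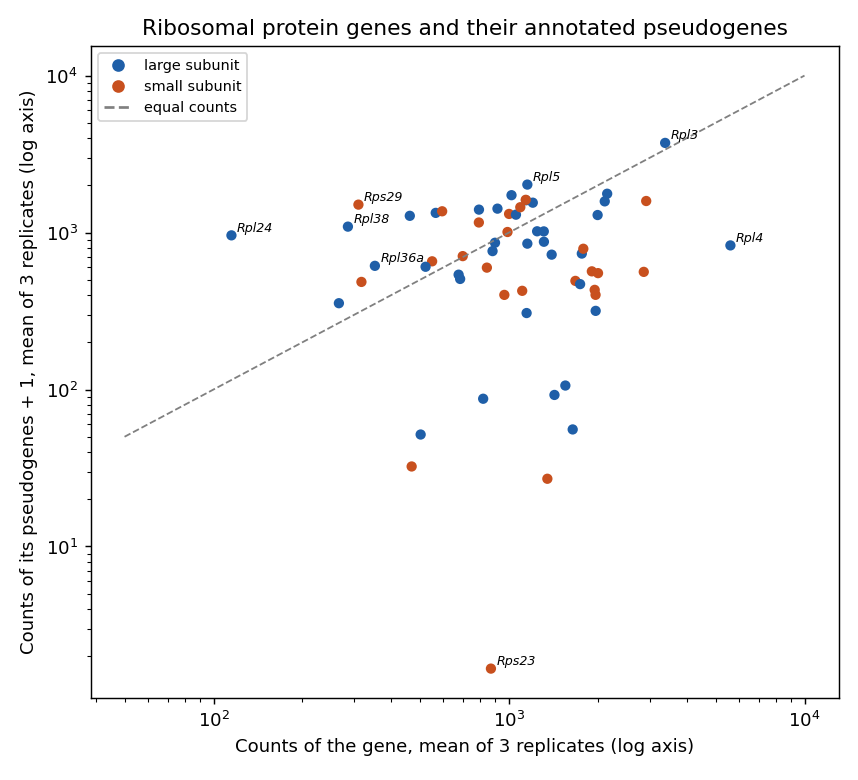
Counts of the 61 detected ribosomal protein genes with a word-sharing pseudogene (horizontal, log axis) against the summed counts of their pseudogenes plus 1 (vertical, log axis), each a mean of 3 replicates. Blue marks the large and orange the small subunit, and the dashed line equal counts. Of these genes 21 lay below their pseudogenes in every replicate, with Rpl24 and Rps29 furthest above the line.

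Such a pseudogene was found for 62 members, and 17 detected members had fewer counts in every replicate than a single pseudogene. Rpl24 had 194, 111 and 40 counts, while its pseudogene Gm9385, on chromosome 9, had 910, 516 and 280. Rps29, named like Rpl38 after its values were seen, had 476, 296 and 156 counts, while Gm14303, on chromosome 2, had 2183, 1541 and 791. Rpl38 had 453, 260 and 142 against 1398, 868 and 430 for Rpl38-ps2. In these 3 cases the pseudogene was higher in each library by a wide margin.

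In 3 further cases the counts were closer. Rpl3 had 5478, 3047 and 1603 counts and Rpl3-ps1, at chrX:13202571-13203780, had 5883, 3152 and 1716. Both share a run of 728 identical bases. Rpl5 had 1747, 1055 and 659 counts against 2768, 1465 and 909 for Gm15500, with a shared run of 1018 bases. Rps6 had 1315, 650 and 407 counts against 1680, 898 and 542 for Rps6-ps4, with a shared run of 750 bases. Reads inside such runs carry no letter that tells the copies apart, and which copy they came from was not tested.

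If the counts of its word-sharing pseudogenes were added to each member, the members would hold 0.528% of assigned counts instead of 0.347%. The range of levels by main transcript length would then narrow from 40.2-fold to 19.8-fold and the ratio of the 90th to the 10th percentile from 5.38 to 4.56. Rpl24 would rise from 21.2 to 216 TPM and Rps27l, with no such pseudogene, would be the lowest detected gene at 42.9 TPM. No pseudogene shared a 150-base word with more than 1 member. These sums take all counts of these pseudogenes as the member's own, and leave out pseudogenes that share only shorter words and protein-coding copies.

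**Figure D3:**
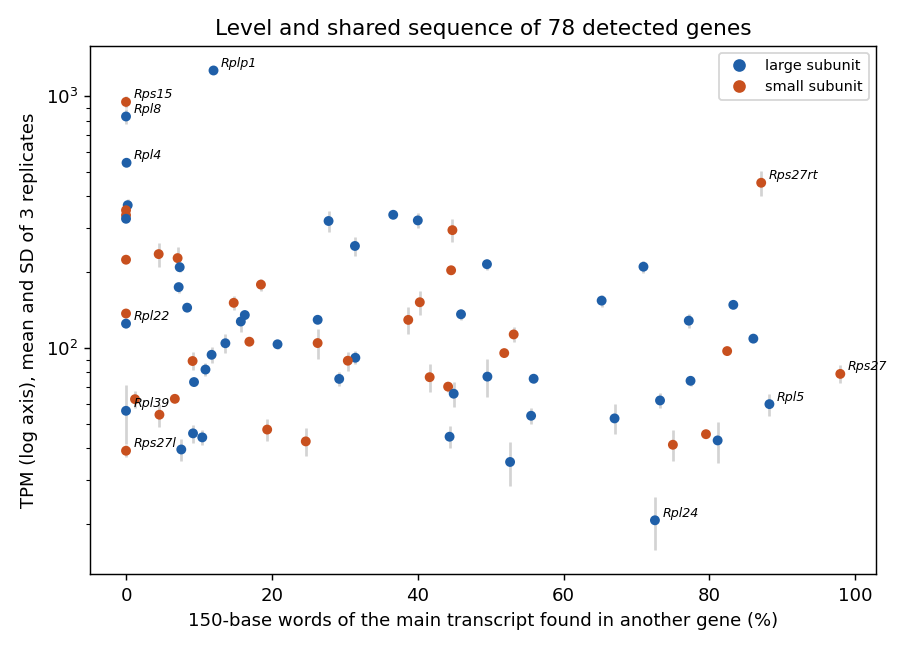
Mean level of the 78 detected genes in TPM on a log axis, with SD over 3 replicates in grey, against the percent of 150-base words of the main transcript found in another gene. Blue marks the large and orange the small subunit. Rps15 and Rpl8 stand high at 0%, while Rps27rt is the one gene above 400 TPM with most of its words elsewhere.

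Levels differed with the share of words found elsewhere. For the 10 detected genes with none the median was 275 TPM ± 2.45 (n = 3, SD between replicates), the 14 with under 10% had 117 ± 2.98, the 33 with 10 to 50% had 113 ± 5.83, and the 21 with 50% or more had 75.9 ± 3.68. With the main transcript length the medians were 271, 190, 126 and 160, so the first group stayed highest but the last was no longer lowest. Spearman's rho between share and TPM was -0.28 over the 78 genes, and -0.18 with the main transcript length. These genes share libraries and gene models, and the relation is given as a description.

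Length and position were related to level as follows. Merged exon length had a Spearman's rho of -0.41 with TPM over the 78 genes, main transcript length -0.005 and coding length 0.30. With TPM by main transcript length these values were -0.15, -0.20 and 0.29. Each TPM is a count divided by the length used, so a negative rho with that length is partly built in. The members lie on 19 chromosomes, with 14 on chromosome 7, 8 on chromosome 9 and 4 on X. Inside 29 members lie 56 annotated small nucleolar RNAs, with 5 in Rpl4 and 4 in Rpl13a. Detected members with and without such an RNA had medians of 124 and 104 TPM, or 126 and 164 by main transcript length, so the order depended on the length.

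Spread between replicates was measured as the SD of log2(normalized count + 1), with counts scaled by median-of-ratios size factors. The 78 detected members had a median SD of 0.11, against 0.13 for all 12471 detected nuclear protein-coding genes and 0.11 for the 3484 other such genes in the middle range of the members' counts. Rpl24 had the largest SD at 0.42, with normalized counts of 109, 115 and 67.5. Rpl39 (0.37), Rpl13a (0.35), Rpl36a (0.26) and Rpl35 (0.25) followed. Rpl39 was low in replicate 1 (265, 409 and 420 normalized counts) and Rpl13a in replicate 3 (378, 390 and 252).

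The steadiest members were Rplp2 (SD 0.010), Rpl9 (0.014), Rpl6 (0.025) and Rps27l (0.027). Rplp2 had 689, 694 and 684 normalized counts. Rps27l was steady at only 142, 145 and 147 normalized counts. Both lists of genes thus held members with few counts.

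**Figure D4:**
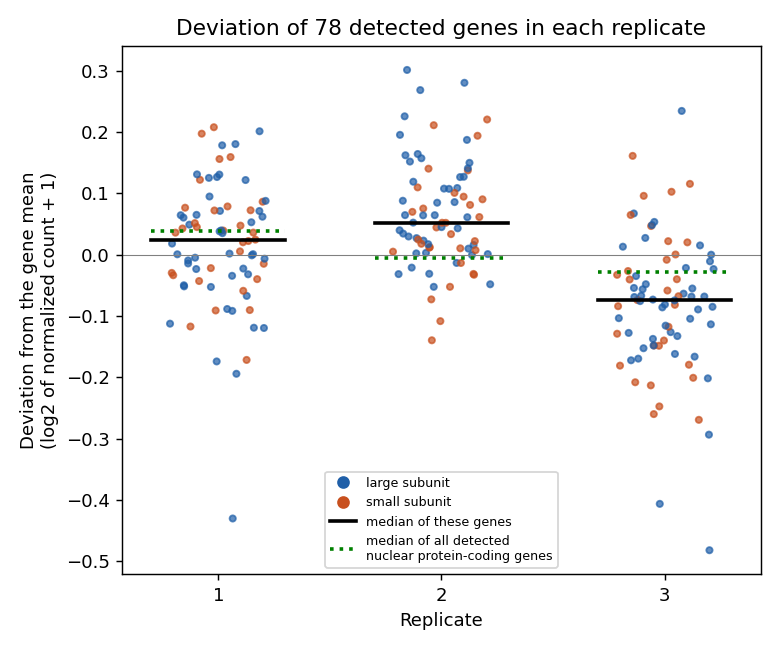
Deviation of each of the 78 detected genes from its own mean over replicates, in log2(normalized count + 1), for replicates 1, 2 and 3. Each point is a gene, black lines are the medians of these genes (0.02, 0.05 and -0.07) and dotted green lines those of all detected nuclear protein-coding genes (0.04, -0.005 and -0.03).

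The members moved together to a small degree. Their median deviation from the gene mean was 0.02, 0.05 and -0.07 in replicates 1, 2 and 3, beside 0.04, -0.005 and -0.03 for all detected nuclear protein-coding genes. Replicates 1, 2 and 3 held the lowest value of 17, 8 and 53 of the 78 genes, where the shares over all detected nuclear protein-coding genes were 20.4%, 33.9% and 45.7%. They held the highest value of 28, 37 and 13 genes (35.9%, 47.4% and 16.7%), where those shares were 41.9%, 27.5% and 30.6%. Replicate 3 thus held the lowest value of most members (67.9%). Without replicate 3 the median SD of the members fell from 0.11 to 0.06. The same value for all detected nuclear protein-coding genes is not given here, so this fall cannot be called particular to the members.

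Replicate 3 was also the library with the fewest counts, the highest share of CT010467.1 and the highest sums of endothelial, astrocyte (210, 136 and 268 TPM in replicates 1, 2 and 3) and microglia markers (34.9, 44.0 and 48.8 TPM), and the part of these in the offset was not tested. The offsets were below 0.1 on the log2 scale in all 3 libraries. With 1 condition, a biological and a technical difference between pools of mice cannot be told apart.

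Other genes of translation were compared by lists. The 6 ribosomal proteins outside the symbol rule were all detected with a median of 84.3 TPM ± 2.23 (SD, n = 3). Rps3a1 (321) and Fau (191), which encodes a small subunit protein fused to a ubiquitin-like one, were the highest. Rack1, the signalling scaffold of the small subunit, had 102 TPM. Rpl7l1 (66.4) and Rpl22l1 (50.9) were lower.

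The 16 other TOP mRNAs were all detected and had a median of 146 TPM ± 3.71. Eef1a1 (1410 TPM) and Eef2 (653 TPM), the elongation factors that bring aminoacyl-tRNA and move the ribosome on, led this list, and of these only Eef1a1 stood above Rplp1. Naca, a subunit of the nascent chain complex, was lowest at 43.0 TPM. This was the one list of 5 with a median above that of the ribosomal protein genes in TPM, whereas 2 lists were above by CPM and 0 with the main transcript length.

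All 28 ribosome biogenesis genes were detected at a median of 47.8 TPM ± 0.87. Nop56 (173), a core protein of the box C/D particles, Bop1 (148) and Ubtf (145), a factor of RNA polymerase I, were the highest, while Fbl, the methyltransferase of the same particles, had 17.9 and Wdr12 had 14.7. Of the 9 regulators of TOP mRNAs and S6, 8 were detected, with a median of 54.8 TPM ± 1.87. Larp1, which binds the TOP tract, had 157 TPM, Mtor 62.4, and the S6 kinases Rps6kb1 and Rps6kb2 had 53.2 and 148. Eif4ebp1 had 1.09 TPM and was not detected, while its paralogue Eif4ebp2 had 53.4.

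The 78 mitochondrial ribosomal protein genes served as a second ribosome in the same cells. Their median was 47.0, 46.8 and 46.8 TPM (mean 46.9 ± 0.11, SD, n = 3), and 77 were detected. Mrpl41 was the highest at 282 TPM. The cytosolic median was above the mitochondrial median in each replicate.

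**Figure D5:**
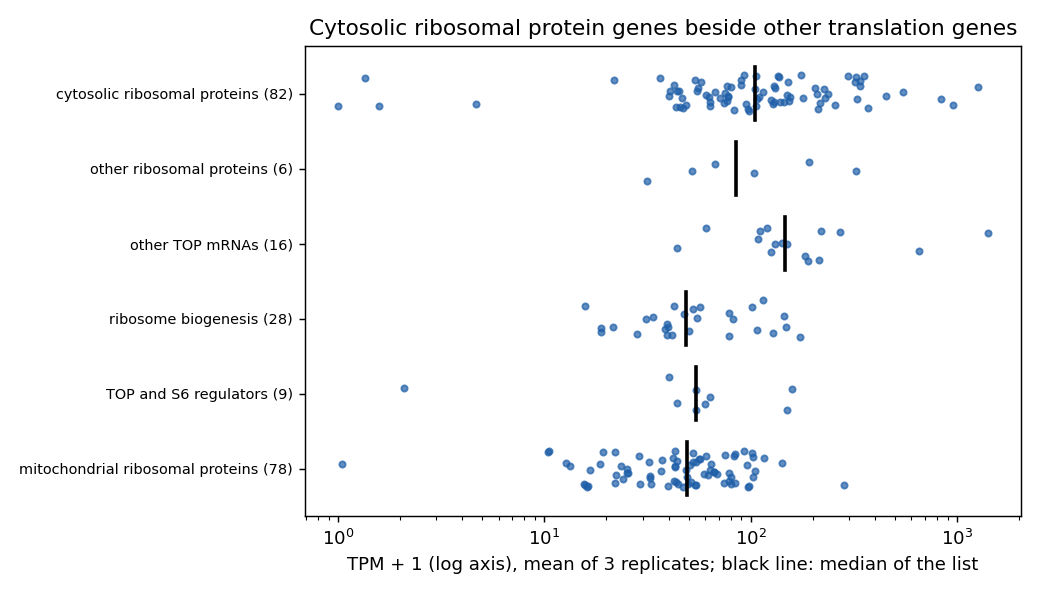
Mean level over 3 replicates in TPM + 1 on a log axis for the 82 cytosolic ribosomal protein genes and 5 lists of other translation genes, with the number of genes in parentheses. Each point is a gene and the black line the median of its list. The other TOP mRNAs stand at 146 TPM, the cytosolic ribosomal proteins at 102 and the mitochondrial ones at 46.9.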

How the data were processed

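Poly(A) RNA of tdTomato-positive cells from 3 replicates was sequenced by the authors with paired 150-base reads. The deposited table holds raw counts per gene that the authors made with featureCounts after alignment with STAR. Versions, and the setting for strand and for reads with several matches, are not given in the sources used here, and GRCm38 with GENCODE vM15 is stated for other libraries of the study. The deposited length column gives merged exon bases.

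Gene IDs without version were matched to GENCODE vM21 (52489 of 52636). TPM was computed over nuclear protein-coding genes, and log2 values used a pseudocount of 1. Median-of-ratios size factors were computed in Python 3.11.15, and TMM factors with edgeR 4.0.16. No test was run, as there is 1 group. The totals of 15833075 to 48159841 counts set the precision. The main transcript was the APPRIS principal one of vM21. It is longer than the deposited length in 2 members, Rpl8 (1020 against 862 bases) and Rpl17 (1326 against 775). Levels of these genes by main transcript length are therefore uncertain. Where several transcripts qualified, a basic-tagged one, then the longest coding sequence and then the longest transcript was taken. Long variants can thus be the main one, such as 5179 bases for Rps15a with a coding length of 390. Words were searched in annotated vM21 transcripts, not in the genome. Sequences are from RefSeq (GRCm38.p6). Size factors, TPM scaling and the SD over replicates were tested on simulated data. The searches of words, pseudogenes, shared exons and promoter letters were not.

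Genes named are the 10 highest and 10 lowest members, the 5 most and least variable detected ones, the 5 with the largest shared sequence, and members of roles and pairs. Some of these genes are not reported here. Members and lists were chosen with earlier results of these data known. Alternatives of length for member levels and roles, of added pseudogene counts and of members with under 10% shared words were chosen after seeing the data.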

Additional observations from a re-analysis of the deposited data

Results flagged for a closer look

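Counts on annotated pseudogenes that share 150-base words with ribosomal protein genes lie outside the counts of those genes and are pointed out here as signal that the levels do not use. They summed to 85483 in replicate 1, 49220 in replicate 2 and 27586 in replicate 3. Whether these reads came from the pseudogenes or from the ribosomal protein genes was not tested.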

How the results depend on the processing

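The median level of the members, 102 TPM, was 32.0 with TPM over all genes, 17.3 in RPKM, 36.9 in CPM, 156 with the main transcript length, 107 over detected members and 137 over members with under 10% of words elsewhere. The summed share of 0.347% was 0.428% of nuclear protein-coding counts and 0.528% with pseudogene counts. The subunit difference of -0.10 (log2) was -0.047 in CPM, -0.43 with the main transcript length, -0.52 as a mean and -0.46 with under 10% of words elsewhere, and reversed to 0.039 over detected members. The range of levels, 61.2-fold, was 40.2-fold with the main transcript length and 19.8-fold with pseudogene counts added. Lists above the members' median, 1 in TPM, were 2 in CPM and 0 with the main transcript length. Of the log2 ratios of pairs, 27 of 64 values under alternatives moved by more than the spread between replicates, and 1 reversed (Rpl22 minus Rpl22l1, -0.041 with the main transcript length). The causes of these shifts were not tested. The alternatives using pseudogene counts or shared words, and those of length for the range and the role groups, were chosen after seeing the data.

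Leaving out each replicate gave medians of 100.2 to 103 TPM, shares of 0.340% to 0.355%, 78 detected genes, subunit differences of -0.11 to -0.08, ranges of 53.8-fold to 67.2-fold, and a median SD of 0.06 (without replicate 3) to 0.12. No paired analysis was possible because the labels give 1 group only. Values of genes under a few counts, and ranks of neighbours, are limited by 3 libraries of 3.04-fold unequal depth.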
